A study of Mus musculus with 8 samples.

Results

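Long intergenic noncoding RNAs (lincRNAs) are transcripts longer than most small RNAs that lie between protein-coding genes and are not translated. Their promoters were examined in 8 ATAC-seq libraries of SN4741 cells, mouse cells first taken from embryonic substantia nigra, immortalised with a temperature-sensitive T antigen, and described by the labels as wild-type neural precursor cells. Cells of 4 libraries grew at 37 °C in 10% fetal bovine serum. Cells of the other 4 were moved to 39 °C and 0.5% serum for 48 hours, which is meant to induce differentiation, so temperature and serum cannot be told apart. All libraries come from 1 cell line, and nothing in the labels says that replicates were separate cultures, so each p-value measures the spread between these samples, which may be technical.

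A promoter was the region 1 kb either side of every annotated lincRNA start on chromosomes 1 to 19 (GENCODE M21, mm10), leaving out starts within 2 kb of a protein-coding start. Of 5209 annotated lincRNA genes, 4768 kept at least 1 start and 441 did not. These 4768 lincRNA promoters, with 6529 starts, were members of a set of 51229 promoters of all gene types. A promoter counted as called in a library when a peak of that library overlapped the region by at least 1 bp. The strength of a call was the within-list percentile of the peak's −log10 q-value, where 100 is the strongest peak of that library. A peak says that DNA was accessible to the transposase and not that the RNA was made, and in bulk cells fewer open cells cannot be told apart from less opening per cell.

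LincRNAs act in several ways. Some build nuclear bodies, some regulate neighbouring genes in cis, and some are the precursors from which small RNAs are cut. As a class they are known for low expression and narrow tissue specificity, and fewer of their promoters lie in CpG islands than those of coding genes. Polymerase initiation at either type of promoter leaves a nucleosome-depleted stretch that the transposase can enter.

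The sequence under the summit, the position of the highest pileup, is shown for 6 members that recur in the results: the promoter of the nuclear-body RNA Neat1, that of the p53 target Trp53cor1, and single examples of a promoter with a higher rank at 39 °C (Gm15835), a higher rank at 37 °C (D230017M19Rik), a peak at 37 °C alone (Gm40323) and a peak at 39 °C alone (Gm44202). Each covers 201 bases, 100 either side of the summit, on the strand of the gene, from the GRCm38.p6 sequence. Capitals mark matches on either strand to the motifs TATAAA (the TATA box), CCAAT (the CCAAT box), GGGCGG (the GC box), TGANTCA (the AP-1 site), GGAATG (the TEAD site), TGACGTC (the CRE), CCGGAAG (the ETS site), CACGTG (the E-box) and the p53 decamer.
Neat1, chr19:5845499-5845699, minus strand: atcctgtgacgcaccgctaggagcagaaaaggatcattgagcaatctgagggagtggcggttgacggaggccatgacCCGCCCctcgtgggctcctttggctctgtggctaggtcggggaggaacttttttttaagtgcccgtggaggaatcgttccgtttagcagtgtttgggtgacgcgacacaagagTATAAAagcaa
Trp53cor1, chr17:29078967-29079167, minus strand: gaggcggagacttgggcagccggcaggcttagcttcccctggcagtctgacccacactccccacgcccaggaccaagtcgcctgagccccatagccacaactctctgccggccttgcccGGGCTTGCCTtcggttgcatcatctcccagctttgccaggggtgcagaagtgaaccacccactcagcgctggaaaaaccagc
Gm15835, chr16:4777659-4777859, plus strand: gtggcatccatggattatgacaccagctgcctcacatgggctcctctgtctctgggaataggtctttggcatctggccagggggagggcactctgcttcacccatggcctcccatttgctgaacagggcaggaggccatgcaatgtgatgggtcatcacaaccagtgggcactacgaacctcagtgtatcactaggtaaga
D230017M19Rik, chr1:72244107-72244307, plus strand: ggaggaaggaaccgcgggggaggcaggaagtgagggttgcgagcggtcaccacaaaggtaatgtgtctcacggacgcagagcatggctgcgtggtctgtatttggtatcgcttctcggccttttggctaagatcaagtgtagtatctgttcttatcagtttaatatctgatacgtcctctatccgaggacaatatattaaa
Gm40323, chr5:125361081-125361281, plus strand: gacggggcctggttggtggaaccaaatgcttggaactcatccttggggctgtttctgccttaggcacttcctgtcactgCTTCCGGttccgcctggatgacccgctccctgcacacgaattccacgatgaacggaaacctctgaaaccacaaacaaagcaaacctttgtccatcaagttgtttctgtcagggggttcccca
Gm44202, chr6:81987025-81987225, minus strand: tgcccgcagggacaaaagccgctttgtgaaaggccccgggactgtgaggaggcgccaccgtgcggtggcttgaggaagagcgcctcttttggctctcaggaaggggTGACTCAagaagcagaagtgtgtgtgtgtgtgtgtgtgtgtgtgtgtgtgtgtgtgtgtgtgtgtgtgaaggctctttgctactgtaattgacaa

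The Neat1 sequence held TATAAA 31 bp upstream of the annotated start, with its summit 121 bp upstream. In Trp53cor1 the p53 decamer began 131 bp downstream of the start. Gm40323 held CCGGAAG 15 bp upstream of its start. Gm44202 held TGANTCA 376 bp upstream. None of the listed motifs was matched in the stretches of Gm15835 and D230017M19Rik. A match is a description of the letters and not evidence of binding.

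Accessible promoters were a minority among lincRNAs. Of the 4768 members, 689 (14.5%) had a peak in all 8 libraries, 519 (10.9%) in 1 to 7 and 3560 (74.7%) in none. Among 20807 coding genes, 61.3% were called in all 8 libraries and 29.7% in none. The 689 members rested on 657 distinct peaks in replicate 1 at 37 °C, because 62 members shared a peak with another member, and for 39 of the 689 the strongest peak also reached a coding promoter.

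At 37 °C, 23.4%, 21.0%, 19.7% and 23.9% of lincRNA promoters had a peak in replicates 1 to 4. At 39 °C the shares were 18.6%, 18.3%, 18.6% and 15.3%. Every library at 37 °C lay above every library at 39 °C. The means were 22.0% ± 1.99 and 17.7% ± 1.63 (SD over 4 libraries), a difference of −4.27 percentage points (p = 0.0286 by a two-sided exact permutation test, the lowest that 4 against 4 libraries can give). List length moved with temperature, while sequencing depth overlapped, with the deepest and the shallowest library both at 37 °C. Libraries held 49.8 to 169 M fragments at 37 °C and 52.7 to 71.2 M at 39 °C, and 74026 to 92013 peaks against 54845 to 68410. With every list held to its 54845 strongest peaks, the difference was −1.57 percentage points (exact permutation p = 0.0286). Among the 6 libraries under 100 M fragments, it was −2.62 percentage points (exact permutation p = 0.133). With so few libraries this test cannot give a p under 0.05. The 37 °C libraries kept, at 21.0% and 19.7%, still lay above every library at 39 °C.

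Coding promoters fell by a similar number of points. Their shares were 68.0% ± 1.24 and 63.7% ± 1.21 at the lower and the higher temperature (SD over 4 libraries), a difference of −4.37 points (exact permutation p = 0.0286). The log2 odds ratio of a lincRNA against a coding promoter being called was −2.92 ± 0.0881 at 37 °C, and −3.03 ± 0.0929 in the 39 °C libraries (SD over 4 libraries). That difference of −0.11 did not pass the threshold (exact permutation p = 0.2). It was −0.144 without replicate 3 at 37 °C (exact permutation p = 0.0286) and −0.0617 without replicate 4 at 39 °C (exact permutation p = 0.343), so the call rests on which libraries enter. Within each library, the lincRNA share was 45.3 to 47.0 points below the coding share, a mean difference of −46.0 points (lower in 8 of 8 libraries, exact sign-flip test, two-sided, p = 0.00781). Calls, strongest peaks and summit distances were taken over all starts of a gene, and 3788 of the 4768 members had 1 kept start. A gene with more starts has more sequence to be hit. The number of starts was not matched in any comparison with coding promoters. LincRNA genes whose starts all lie within 2 kb of a coding start, left out of the members, were called at 74.6% and 70.2%, and promoters of antisense RNAs at 44.3% and 37.7%, at 37 °C and 39 °C.

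**Figure D1:**
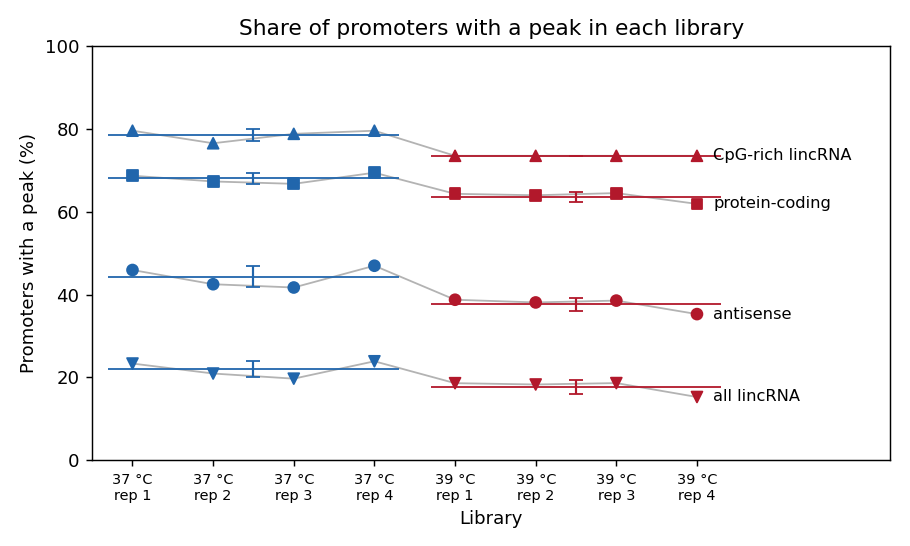
Share of promoters with a peak (percent, y axis) in each of the 8 libraries (x axis), blue at 37 °C and red at 39 °C, for CpG-rich lincRNA, protein-coding, antisense and all lincRNA promoters. Horizontal lines are group means and bars are SDs over 4 libraries. For all lincRNA promoters, the 4 libraries at 37 °C lie between 19.7% and 23.9% and those at 39 °C between 15.3% and 18.6%.

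CpG content separated called from uncalled lincRNA promoters more than any other annotated feature examined. Only 132 members were CpG-rich within 500 bp of a start (observed to expected CpG ratio of at least 0.6 and GC of at least 50%), and 95 of these (72.0%) were called in all 8 libraries. Of 4636 CpG-poor members, 594 (12.8%) were. The CpG-rich share was 78.6% ± 1.43 at 37 °C and 73.5% in each of the 4 libraries at 39 °C. The CpG-poor share was 20.4% ± 2.02 and 16.1% ± 1.67 (SD, n = 4). The gap between CpG-rich and CpG-poor members averaged 57.8 points and had the same sign in 8 of 8 libraries (exact sign-flip p = 0.00781). Median GC was 49.2% for members called in all libraries and 45.1% for members called in none.

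Coding promoters were more often called at matched CpG class, in comparisons chosen after the values were seen and not matched for the number of starts. CpG-rich lincRNA promoters lay 15.4 to 19.7 points below CpG-rich coding promoters and CpG-poor ones 15.1 to 18.3 points below CpG-poor coding promoters (each lower in 8 of 8 libraries, exact sign-flip p = 0.00781). Between the temperatures the former gap went from −16.2 to −19.2 points and the latter from −17.9 to −15.3 points (exact permutation p = 0.0286 each). These changes hold for differences in points. CpG-rich coding promoters were near the ceiling, at 94.8% and 92.7%, and CpG-poor ones at 38.2% and 31.4%, so the direction can depend on the scale. Odds ratios within a CpG class were not tested.

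Position and repeat content also went with the share called. Members 2 to 5 kb from a coding start were called in all 8 libraries in 26.4% of cases, members 5 to 50 kb away in 19.05%, and members over 50 kb away in 10.2%. Where under 10% of the bases around the start were soft-masked repeat, 21.9% of members were called in all libraries, against 12.8% at 10 to 50% masked and 4.30% above 50%. Members with at least 2 kept starts, which have more sequence to be hit, reached 20.8% and those with 1 start 12.8%. The 94 members with a name other than a Gm, Rik or clone identifier reached 30.9%, and the 4674 others 14.1%. These features overlap in the same genes, and the shares are given without a test.

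Motifs were counted on both strands from 250 bp before to 50 bp after each start, and overlapping motifs were not separated. GGGCGG, bound by Sp1-type factors, was in 20.3% of lincRNA promoters called in all libraries, in 5.56% of those called in none and in 43.7% of coding promoters. TGANTCA was in 15.8%, 9.89% and 6.88% in the same order. CCGGAAG was in 6.82%, 2.84% and 11.03%. TATAAA went the other way, with 13.4% of members called in all libraries, 18.7% of members called in none and 12.7% of coding promoters. CCAAT was in 33.7%, 38.7% and 38.6%, GGAATG in 19.6%, 17.2% and 13.5%, and CACGTG in 7.40%, 5.25% and 7.82%. TGACGTC was in 2.61%, 1.01% and 4.00%, and the p53 decamer in 9.14%, 8.57% and 7.88%.

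LincRNA peaks were weaker and lay farther from the nearest start than coding peaks, without matching for the number of starts per gene. Over members called in all 8 libraries, the median within-list percentile was 78.5 ± 2.54 at 37 °C, and 70.9 ± 3.40 in the 39 °C libraries (SD over 4 libraries), a difference of −7.57 percentile points (exact permutation p = 0.0286). With lists of equal length the difference was −1.60 (exact permutation p = 0.0857). Coding promoters had medians of 91.5 and 88.8, and the lincRNA median was lower by 15.5 points on average (lower in 8 of 8 libraries, exact sign-flip p = 0.00781). Median fold enrichment over the genome-wide background was 10.97 to 16.6 for called lincRNA promoters and 38.6 to 67.5 for coding ones. For lincRNA promoters it averaged 12.2 at 37 °C and 15.1 at 39 °C (exact permutation p = 0.0571), the other direction from the percentile. These medians cover the promoters called in each library, which differ between libraries.

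The median distance from the summit to the nearest start ranged from 413 to 496.5 bp across libraries for lincRNA promoters and from 70 to 85 bp for coding promoters, a comparison chosen after the values were seen (farther in 8 of 8 libraries, exact sign-flip p = 0.00781). A summit lay within 200 bp of a start for 30.1 to 33.7% of called lincRNA promoters and for 71.3 to 77.8% of coding ones. Median peak width was 1083 to 1435.5 bp and 1858 to 2601 bp. Of the 689 members called everywhere, 501 (72.7%) had the summit of their strongest peak inside the 1 kb region in every library, 114 had it outside in every library, and 74 had it inside in some libraries and outside in others.

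Whether a peak found at 37 °C was also found at 39 °C went with its rank. Of 406 members called in all 4 libraries at 37 °C with a mean percentile above 75, 97.0% were called in all 4 at 39 °C and 0.493% in none. For the 270 between 50 and 75 the shares were 85.2% and 3.33%, for the 182 between 25 and 50 they were 34.1% and 14.3%, and for the 39 below 25 they were 7.69% and 56.4%. Coding promoters followed the same order, with 99.6%, 91.0%, 43.5% and 6.23% retained from the strongest class to the weakest. The classes use the 37 °C values that the call itself rests on, so these shares are a description.

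**Figure D2:**
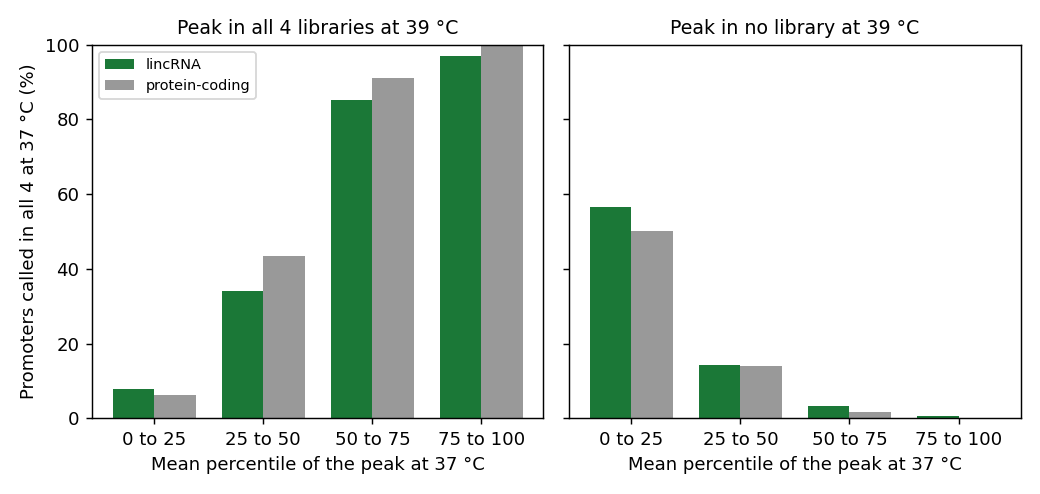
Share (percent, y axis) of promoters called in all 4 libraries at 37 °C that were called in all 4 (left) or none (right) of the libraries at 39 °C, by mean within-list percentile at 37 °C (x axis), for lincRNA (green) and coding (grey) promoters. Of lincRNA promoters above percentile 75, 97.0% were called in all 4 at 39 °C, and below percentile 25, 7.69%.

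LincRNA promoters called in every library at 1 temperature, with no call at the other, were few. Only these are counted below as called at 1 temperature alone. Peaks in only 1, 2 or 3 libraries at 37 °C, with no peak at 39 °C, were found for 66, 61 and 55 members. For 39 °C, with no peak at 37 °C, the counts were 14, 4 and 3. A peak was found in all 4 libraries at 37 °C and none at 39 °C for 59 members, 4.88% of the 1208 called at least once, where the background over promoters of all genes was 2.95%. The opposite pattern was found for 2 members (0.166%, background 0.0368%). Coding promoters gave 318 (2.17%) and 3. Fisher's exact test, adjusted by Benjamini-Hochberg over all genes called at least once, passed no promoter (0 of 21760, smallest adjusted p = 0.958), and 649 promoters, 61 of them members, had an unadjusted p of 0.0286, the smallest possible. More libraries at 37 °C than at 39 °C called 435 of the 1208 members (36.0%, background 18.2%), and more at 39 °C called 58 (4.80%, background 1.65%). The counts 59 and 2 became 37 and 10 with lists of equal length, and 60 and 7 in the 6 libraries under 100 M fragments. Without replicate 3 at 37 °C, the shallowest library, 59 became 100, and without replicate 4 at 39 °C, which has the shortest list, 2 became 5. With fewer libraries the rule is easier to meet, so counts could only stay or rise when libraries were left out.

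**Figure D3:**
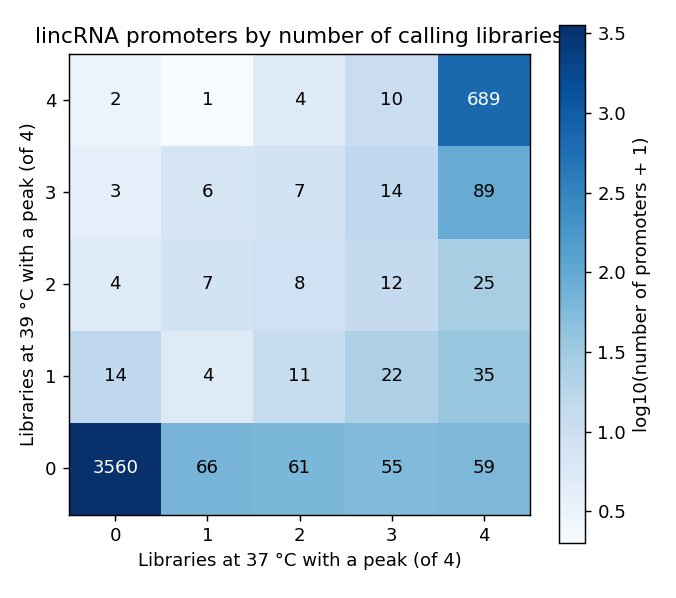
Number of lincRNA promoters (printed in each square, colour on a log10 scale) by the number of libraries with a peak at 37 °C (x axis, 0 to 4) and at 39 °C (y axis, 0 to 4). The corners hold 3560 members called in no library, 689 called in all, 59 called in the 4 libraries at 37 °C alone and 2 called in the 4 at 39 °C alone.

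The highest-ranked members of the 59 rested on wide peaks with distant summits. 3930402G23Rik (chr8:10924427-10928696), an uncharacterised transcript, had percentiles of 90.4, 88.0, 86.1 and 90.8 at 37 °C and no peak at 39 °C. Its peaks were 8102 to 10829 bp wide with summits 6540 to 6630 bp from the start. Gm45353 had percentiles of 81.1, 74.6, 73.4 and 79.9 with summits 4041 to 6073 bp away, and Gm49503 had 74.7, 73.1, 72.1 and 76.8 with summits 3605 bp away. In Gm47109 and Gm17753, with percentiles of 46.9 to 78.8 and 30.7 to 94.0, the summits lay 1558 to 3696 bp and 609 to 5062 bp away. For all 5, the region was touched by a peak whose summit lay outside it in at least 1 library, and in Gm47109 and Gm49503 the peak did not reach the start itself. In Gm17753 the summit was 30 and 33 bp from a coding start in replicates 1 and 4, and in Gm45353 it was 539 to 600 bp from one in 3 libraries.

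Of the 59 members, 37 had the summit inside the region in all 4 libraries at 37 °C. When a call required the summit inside the region, 1009 members were called at least once. Of these, 41 were called in all 4 libraries at 37 °C and none at 39 °C, where the share over promoters of all genes was 2.36%. Among the 41, 39 were also among the 59. The 5 with the highest percentiles, chosen after the values were seen, were Gm40323, Gm12514, AC126942.1, Gm28641 and Gm45164. Gm40323 (chr5:125361175-125370760) had percentiles of 57.3, 42.4, 43.6 and 55.7, with summits 6 to 155 bp from the start and widths of 753 to 903 bp. Gm12514 had percentiles of 56.2, 41.9, 42.8 and 53.6, and Gm28641 had 41.7, 41.3, 33.8 and 55.9. These calls were in the lower and middle ranks of their lists.

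The 2 members called at 39 °C alone were Gm26735 and Gm44202. Gm44202 (chr6:81985748-81986743, 20785 bp from the nearest coding start) had percentiles of 23.6, 22.1, 23.7 and 10.96, from peaks 319 to 333 bp wide with summits 382 to 384 bp from the start. Gm26735 (chr13:28943048-28951671) had percentiles of 32.3, 37.6, 35.5 and 24.8, from peaks 391 to 486 bp wide whose summits, 1061 to 1107 bp away, were just outside the region. With the summit required inside, 3 of the 1009 members called at least once had the pattern (background over all genes 0.237%): Gm44202, Gm29282 and 5033406O09Rik. In Gm29282 and 5033406O09Rik the 37 °C libraries also had peaks over the start, 8492 to 12920 bp and 3933 to 4372 bp wide, with summits 4206 to 4256 bp and 1787 to 1803 bp away. Gm44202 alone had the pattern under both definitions.

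**Figure D4:**
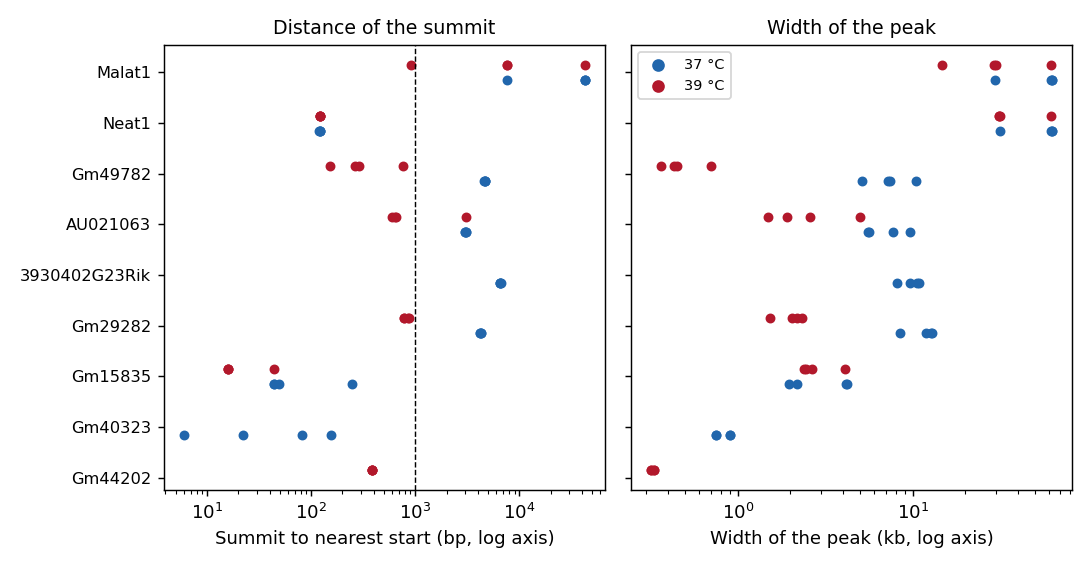
Distance from the summit to the nearest annotated start (left, bp, log axis) and width of the strongest peak (right, kb, log axis) for 9 members (y axis), 1 point for each library with a peak, blue at 37 °C and red at 39 °C. The dashed line is the 1000 bp edge of the region. Gm49782 has summits 4583 to 4689 bp away at 37 °C and 151 to 760 bp away at 39 °C, while Gm15835 stays within 247 bp at both.

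Among members called everywhere, ranks were compared after re-ranking the strongest peaks of the 17228 promoters of all genes called in all 8 libraries from 0 to 100 within each library. By limma with Benjamini-Hochberg adjustment over these promoters, 111 of 689 members (16.1%) ranked higher at 39 °C (background 10.8%) and 74 (10.7%) ranked higher at 37 °C (background 8.69%). The median difference was 0.33 points for members and 0.48 for all genes. Percentiles within the whole list, without re-ranking, gave 6 (0.871%, background 0.395%) and 402 (58.3%, background 52.8%), with a median difference of −6.87 points for members and −2.69 for all genes, so the direction of most members depends on this scaling. The calls are therefore ranks relative to other promoters. An exact permutation test per promoter with the same adjustment passed 0 of 689 (smallest adjusted p = 0.113), and 233 (33.8%, background 25.4%) had an unadjusted p under 0.05. The smallest unadjusted p of that exact permutation test is 0.0286. It could therefore pass a promoter after adjustment only if most promoters reached that value, so its 0 does not bear on the limma calls. In the 6 libraries under 100 M fragments, 73 members ranked higher at 39 °C and 38 at 37 °C. The count of 111 fell to 71 without replicate 2 or replicate 4 at 37 °C or replicate 2 at 39 °C. Of the 111, 87 had the summit inside the region in all libraries, and of the 74, 50.

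**Figure D5:**
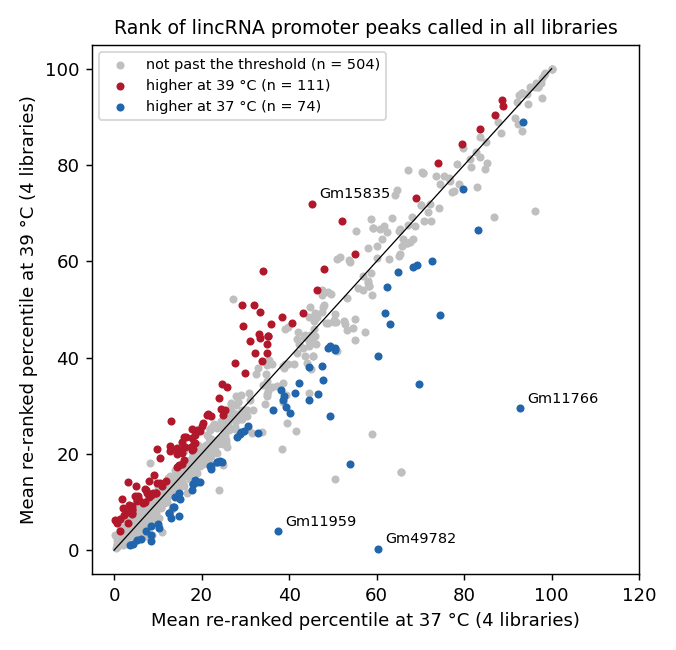
Mean re-ranked percentile at 37 °C (x axis, 0 to 100) against 39 °C (y axis, 0 to 100) for the 689 lincRNA promoters called in all 8 libraries, 1 point each. Red points are the 111 that ranked higher at 39 °C, blue points the 74 that ranked higher at 37 °C by limma, grey points passed in neither direction, and the line marks equal ranks. Gm49782 and Gm11766, far below the line, rest on peaks with distant summits at 37 °C.

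The 5 largest rises at 39 °C were in uncharacterised transcripts. For Gm15835 (chr16:4777743-4779454) the within-list percentiles were 91.0, 88.2, 86.8 and 91.2 at 37 °C and 94.4, 94.6, 94.3 and 92.2 at 39 °C. The groups did not overlap, and its re-ranked mean rose from 45.3 to 72.0, a difference of 26.69 ± 2.32 (SE, limma adjusted p = 0.00045). 5830416I19Rik rose by 23.95 ± 2.31 re-ranked points (adjusted p = 0.000625), Gm43821 by 21.75 ± 2.09 (adjusted p = 0.000623), Gm35019 by 19.01 ± 2.20 (adjusted p = 0.00139) and Gm26535 by 17.04 ± 1.49 (adjusted p = 0.000465), all by limma. Within-list percentiles of 5830416I19Rik, Gm43821 and Gm26535 overlapped between the temperatures, and those of Gm35019 did not. Peaks of Gm15835 and Gm26535 were up to 4238 and 4547 bp wide. Summits of Gm15835 lay 16 to 247 bp from the start, those of 5830416I19Rik, Gm35019 and Gm26535 within 786 bp, and those of Gm43821 1642 to 1727 bp away, outside the region at both temperatures.

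The 5 largest falls at 39 °C were at regions touched by wide peaks. Gm49782 (chr10:128651259-128669315) had percentiles of 92.1, 93.6, 93.8 and 93.0 at 37 °C and 10.9, 9.0, 4.3 and 1.0 at 39 °C, a re-ranked difference of −60.12 ± 2.59 (limma adjusted p = 9.59e-06). Its strongest peak was 5153 to 10512 bp wide at 37 °C, and 365 to 703 bp wide at 39 °C. Gm11766 gave −63.19 ± 17.71 (limma adjusted p = 0.0419). Its percentile of 98.3 in replicate 1 at 39 °C stood beside 43.1 to 50.1 in the other 3, and its peak there was 6530 bp wide against 2277 to 2594 bp. Gm16755 (−36.08 ± 9.41, adjusted p = 0.0335), AU021063 (−35.03 ± 7.72, adjusted p = 0.0189) and Gm11959 (−33.36 ± 1.80, adjusted p = 4.15e-05), by limma, likewise had peaks up to 8612, 9728 and 22150 bp wide at 37 °C, with summits outside the region in at least 3 of those 4 libraries. At 37 °C several of these summits sat at coding starts, 69 to 175 bp from one for Gm49782, 72 to 118 bp for AU021063, and, in 3 libraries each, 3 bp for Gm16755 and 3 to 50 bp for Gm11959. In those libraries the ranks are those of peaks centred on coding promoters that reached into the lincRNA region. Summits within 1 kb of a coding start in all 4 libraries at 37 °C were found for 3 of the 74 members (4.05%) and 11 of the 689 (1.60%). Summits of 1 member lay over 1 kb apart between libraries for 11 of the 74, 5 of the 111 and 71 of the 689.

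With the summit required inside the region, 509 members were called in all libraries, of which 66 (13.0%) ranked higher at 39 °C (background 8.14%) and 62 (12.2%) at 37 °C (background 9.65%), and 65 and 50 of them were called in the same direction before. No member passed in opposite directions in these 2 fits (0 in either list). Gm15835 again had the largest rise, by 26.53 ± 2.67 (limma adjusted p = 0.000819). The 5 largest falls, chosen after the values were seen, were D230017M19Rik, D530014G21Rik, Gm28872, Gm48703 and Gm2885, between −17.89 and −13.90 points. D230017M19Rik had percentiles of 98.2, 96.9, 97.0 and 97.5 at 37 °C and 92.9, 93.3, 93.6 and 90.0 at 39 °C, without overlap, a difference of −17.89 ± 2.18 (limma adjusted p = 0.00185). Its summit in replicate 1 at 37 °C lay 6 bp before Gm24497 (chr1:72244213-72244403), an annotated small nuclear RNA of 191 bp, so that the second part of the printed sequence belongs to that small RNA. The summit was there in replicates 1, 2 and 4 at 37 °C and 4 bp upstream of the lincRNA start in replicate 3 at 37 °C and all 4 libraries at 39 °C. In replicate 3, at the same summit, the re-ranked percentile was 81.9, against 60.5 to 68.2 at 39 °C. Of the 689 members, 3 had an annotated small nuclear RNA under the peak in that library.

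The strongest lincRNA peaks ranked near the top of every list. Gm26917, Gm42418 and AY036118 shared 1 peak (chr17:39842997-39848854, 5858 bp in every library) with fold enrichments of 1123 to 2335, at a locus known to hold a copy of the ribosomal RNA repeat, so reads from other copies may be counted there. Next came Neat1, the scaffold of paraspeckles, 6720427I07Rik and Gm6410. Neat1 had percentiles of 99.9, 99.7, 99.5 and 99.9 at 37 °C and 99.8, 99.9, 99.8 and 99.8 at 39 °C, with overlapping groups.

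Neat1 and its neighbour Malat1, an RNA of nuclear speckles, lay under 1 continuous peak in 4 libraries. In replicate 1 at 37 °C it spanned 63124 bp (chr19:5790834-5853957) with the summit 121 bp upstream of the Neat1 start. Replicates 2 and 4 at 37 °C and replicate 1 at 39 °C had peaks of 61618, 62374 and 62172 bp. In the other 4 libraries the peak was split, so that Malat1 had its own summit 7600 to 7673 bp upstream in 3 of them and 910 bp upstream in replicate 4 at 39 °C. Malat1 percentiles were 99.9, 99.7, 99.2 and 99.9 at 37 °C and 99.8, 99.4, 99.1 and 96.5 at 39 °C, and in 4 libraries they are those of the Neat1 summit.

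The other named nuclear RNAs were accessible throughout. All 6 members of this list (of 8 annotated genes) were called in 8 libraries, where 14.5% of all members and 30.9% of members with a name other than an identifier were, and 1 passed limma, higher at 39 °C as 10.8% of all genes were. Their median re-ranked difference was 1.09 points, beside 0.48 over all genes. Trp53cor1 (lincRNA-p21) had percentiles of 75.4, 75.3, 76.4 and 77.1 at 37 °C and 75.1, 75.5, 74.5 and 68.4 at 39 °C. Its within-list values overlapped and were not higher on average at 39 °C, while its re-ranked mean rose from 17.8 to 23.3, by 5.55 ± 1.23 (limma adjusted p = 0.0195). Summits of Trp53cor1 lay 105 to 128 bp downstream of the start. Lncpint, also a p53-responsive RNA, had a difference of 9.64 ± 3.65 (limma adjusted p = 0.101), but this compared different starts. Its strongest peak had the summit near chr6:31088699 at 37 °C and in replicate 2 at 39 °C, and near chr6:31216733 in the other 3 libraries. For Pvt1, the neighbour of Myc, the difference was −3.74 ± 1.39 (limma adjusted p = 0.0963).

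Most host transcripts of small RNAs were accessible. Of 11 members (27 annotated), 7 were called in all libraries, 2 in none and 2 at 37 °C alone. Over all members 14.5% were called everywhere, and 4.88% of those called at least once were called at 37 °C alone. Most of the 11 were CpG-rich. Of CpG-rich members 72.0% were called everywhere, and of members with a name other than an identifier 30.9%. The count for host transcripts was therefore not set apart from that of CpG-rich members. Snhg6, Snhg12 and Snhg20, hosts of small nucleolar RNAs, were called everywhere, as were Mir17hg, the host of the miR-17 cluster, and Mir155hg. The Mir17hg summit lay 1952 to 1958 bp from the start in 5 libraries, the 4 at 37 °C among them, and the Snhg20 summit 5014 bp away in replicates 1 and 4 at 37 °C. With the summit required inside the region, Mir17hg and Snhg20 were called in 3 and 2 more libraries at 39 °C than at 37 °C. The limma test passed for Mir670hg (3.08 ± 0.66 re-ranked points, adjusted p = 0.017) and for Epb41l4aos (7.73 ± 1.93, adjusted p = 0.0289), both higher at 39 °C after re-ranking, where 10.8% of all genes were, and the median over the 7 was 1.44 points. Without re-ranking the direction turned, since mean percentiles went from 75.9 to 71.1 for Mir670hg and from 89.8 to 88.9 for Epb41l4aos. Mir142hg, which hosts a blood-cell miRNA, and Mir124-2hg had no peak.

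Mir9-3hg and Mir124a-1hg, hosts of 1 copy each of the brain miRNAs miR-9 and miR-124, had weak peaks at 37 °C alone. Mir9-3hg (chr7:79500026-79534403) had percentiles of 23.2, 16.1, 10.3 and 15.4, and Mir124a-1hg (chr14:64587331-64593961) had 7.6, 5.6, 6.4 and 12.9. Neither had a peak at 39 °C, and neither had one at either temperature with lists of equal length. Both promoters were CpG-rich. The mature miR-9-5p made from the Mir9-3 hairpin (RefSeq, GRCm38.p6, chr7:79505279-79505301) is shown with its seed, bases 2 to 8, in capitals.
mmu-miR-9-5p: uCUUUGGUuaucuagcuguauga

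Neural lincRNAs gave 5 members, and the rest of the 18 annotated were not of the lincRNA type or had their starts near a coding start. Of these 5, Rmst, Miat and C130071C03Rik were called in all libraries, as 14.5% of all members and 30.9% of members with a name other than an identifier were. Pantr1 and Otx2os1 were called in none, as 74.7% of all members were. Over the 3 called in all libraries the median re-ranked difference was 6.23 points, and 1 passed, higher at 39 °C as 10.8% of all genes were. Rmst, an RNA of neurogenesis that binds Sox2, had percentiles of 80.7, 76.4, 75.4 and 80.7 at 37 °C and 76.2, 77.4, 77.1 and 74.5 at 39 °C. Its re-ranked mean went from 20.2 to 26.4, by 6.23 ± 1.14 (limma adjusted p = 0.00895), while its mean within-list percentile was lower at 39 °C. The strongest peaks of all 3 had their summits outside the region in every library, 1342 to 1416 bp from the nearest start for Rmst, 1111 to 1196 bp for Miat and 1443 to 1656 bp for C130071C03Rik. Miat differed by 1.56 ± 1.18 (limma adjusted p = 0.387). C130071C03Rik, the host of another miR-9 copy, ranked at 93.9 to 96.1 in all libraries.

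Imprinted and pluripotency-associated lincRNAs are read against the 74.7% of all members without a peak. H19, Meg3 and Mirg, the 3 imprinted members (of 9 annotated), had no peak in any library. Among Platr genes, named for their association with pluripotency, 12 of 18 members (29 annotated) had no peak, a share near that of all members, and Platr22 and Platr6 were called in all libraries, with a median difference of −2.55 points and none past the limma threshold (0 of 2). Platr4 was called in 4 libraries at 37 °C and 2 at 39 °C, Platr26 in 4 and 3, Platr1 in 2 and 0 and Platr10 in 0 and 1. Of 4 lincRNAs known from lineages outside the brain (9 annotated), Halr1 of the HoxA locus and Bvht and Carmn, known from heart and smooth muscle, were called in all libraries, where 14.5% of all members and 30.9% of members with a name other than an identifier were, while Hotair of the HoxC locus had no peak. The median re-ranked difference of those 3 was −1.46 points. Halr1 differed by 5.10 ± 0.81 re-ranked points (limma adjusted p = 0.00504), higher at 39 °C as 10.8% of all genes were, with within-list percentiles of 42.0 to 56.8 at 37 °C and 38.7 to 53.3 at 39 °C that overlapped and were lower on average at 39 °C.

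The labelled cell type was checked at coding promoters, where a peak is not expression. Of 7 neural precursor genes, 5 (Vim, Sox2, Nes, Pax6 and Msi1) were called in all libraries, Sox1 was called in 4 libraries at 37 °C and 3 at 39 °C, and Fabp7 was not called. Over all coding promoters 61.3% were called in all libraries and 29.7% in none, so these counts of called promoters, and those of other cell types, are near the background. Of 12 genes of other cell types, 7 were called in all libraries, namely Col1a1, Col1a2, Twist1 and Acta2 of mesenchyme, Gfap and Aqp4 of astrocytes and Mbp of oligodendrocytes. Pecam1 of endothelium and Aif1 of microglia were called in 4 libraries at 37 °C and 3 at 39 °C, and Cdh5, Cx3cr1 and Olig2 in none. By limma, 2 of the 5 precursor promoters called in all libraries ranked higher at 37 °C, where 8.69% of all genes were. Of the 7 others called in all libraries, 2 ranked higher at 39 °C, where 10.8% of all genes were. Counts this small were not tested against those shares. The part of other cell types in the lincRNA results was not tested.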

How the data were processed

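ATAC-seq was performed by the authors on 8 aliquots of SN4741 cells, 4 at 37 °C and 4 at 39 °C, grouped by their labels. Per the submitters' processing notes, reads were aligned to mm10 with Bowtie2 2.4.1, sorted and deduplicated with SAMtools 1.15.1 and Picard 2.26.11, and peaks were called with MACS3 3.0.0a7. Per the file headers and the study's methods, each library was called on its own at a q-value of 0.05, without a control or local background. The authors deposited peak lists, not reads: for each peak they give the position, the summit, the pileup signal (fragments over the summit, not scaled for depth), the fold enrichment (a ratio to 1 genome-wide background per library) and −log10 p-values and q-values. The study's methods describe removing peaks in excluded regions, but the deposited lists still contain a ribosomal repeat locus, under which 3 of the 6 highest-ranked members lie. The lists were used as deposited. A peak can span several accessible sites, and a region touched by any part of it counted as called.

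Promoters were built from GENCODE M21 with Python 3.11.15, numpy 2.4.6, pandas 2.3.3 and scipy 1.17.1. The strongest overlapping peak was taken, and its −log10 q was ranked within its list. Sequence features came from the RefSeq GRCm38.p6 sequence, in which no peak ran past a chromosome end (0 found). Percentile differences were tested with limma 3.58.1 in R 4.3.3 over promoters of all genes called in 8 libraries, with trend and robust options off. On simulated data with known shifts the limma step recovered the larger shifts more often than the smaller ones. Depth was 49.8 to 169 M fragments per library, and a weak peak can be missed at the lower end.

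Members and gene lists were chosen with earlier results of these data known. Genes were named by a rule: list members, the 6 highest mean percentiles, and in each direction the 5 highest-ranked peaks present at 1 temperature alone and the 5 largest rank differences past an adjusted p of 0.05. Genes named with the summit required inside the region were added after their values were seen. Alternatives were a −log10 q of at least 5, lists limited to 54845 peaks, summits inside the region, the gene 5′ end alone, a 500 bp window, a 5 kb distance from coding starts, each library left out, the replicate number as a block, other scalings, and, added later, libraries under 100 M fragments and members without a shared coding peak.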

Additional observations from a re-analysis of the deposited data

Results flagged for a closer look

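In 46 sets of 4 values, each a measure over the libraries of 1 temperature, a library standing apart was sought with Dixon's test, and 6 sets held one, where chance gives about 1 in 20. Replicate 4 at 39 °C accounted for 5 of the 6. It had the lowest share of lincRNA promoters with a peak (15.3%) and the lowest log2 odds ratio of lincRNA to coding calls (−3.17). Its shares for CpG-poor lincRNA (13.6%) and CpG-poor coding promoters (28.8%) were also the lowest. Among the 39 °C libraries it had the highest gap between CpG-rich and CpG-poor lincRNA promoters (59.9 percentage points). This library also had the shortest list, of 54845 peaks. Replicate 2 at 37 °C had the lowest difference between CpG-rich lincRNA and CpG-rich coding promoters at 37 °C (−18.1 percentage points). The cause was not tested.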

How the results depend on the processing

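Among the recomputed values of the main results, 128 kept their direction and their side of the threshold or stayed within 1.5 times the count, 16 moved, 10 lost and 1 gained the threshold, and none that has a sign was reversed (0). Counts have no sign. The turn from more members higher at 39 °C to more higher at 37 °C without re-ranking is thus among those that moved. For single named promoters 547 kept their direction, threshold side or count, 35 moved and 19 lost the threshold. With lists of equal length the share difference was −1.57 points, the median percentile difference −1.60 (exact permutation p = 0.0857), and members called at 1 temperature alone numbered 37 at 37 °C and 10 at 39 °C. With summits inside the region 66 members ranked higher at 39 °C, and with a 500 bp window 1 member was called at 39 °C alone. In libraries under 100 M fragments, chosen after seeing the data, the share difference was −2.62 and the median difference −5.39 (exact permutation p = 0.133 for each), 7 members were called at 39 °C alone, and 38 and 73 ranked higher at 37 °C and 39 °C. So few libraries cannot give an exact permutation p under 0.05. Without re-ranking 402 and 6 ranked higher at 37 °C and 39 °C, with a median difference of −6.87 in place of 0.33, and by exact permutation per promoter 0 and 0. That permutation test can pass a promoter after adjustment only if most promoters reach its smallest p. Leaving out 1 library at a time gave −5.02 to −3.46 points for the share (p = 0.0571 without any 1 library at 39 °C), −0.144 to −0.0617 for the log2 odds ratio (p = 0.0286 without replicate 3 at 37 °C), −8.52 to −6.70 for the median percentile, 59 to 100 and 2 to 5 members at 1 temperature alone, and 55 to 80 and 71 to 101 members higher at 37 °C and 39 °C, each p by an exact permutation test. Counts of members at 1 temperature alone could only stay or rise when libraries were left out. Replicate numbers did not pair the samples (correlations of same-numbered deviations 0.183, −0.128, 0.297 and −0.164). With the replicate number as a block, the share difference was −4.27 and the median difference −7.57 (exact p = 0.125 each, the smallest 4 pairs allow), and 52 and 75 members ranked higher at 37 °C and 39 °C. Peak lists hold no read counts, so accessibility below the caller's threshold, depth within a wide peak and the part of depth in each temperature difference could not be measured.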
